A study of Rattus norvegicus with 6 samples.

Results

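The mRNAs of the cytosolic ribosomal proteins were followed in the renal cortex of rats given 2,2-bis(bromomethyl)-1,3-propanediol (BBMP), a brominated diol used as a flame retardant. Members were the rat genes whose symbol starts with Rpl or Rps and a number, with Rplp0, Rplp1, Rplp2, Rpsa and Rack1 added and the Rps6k kinases and Rps19bp1 left out. They were found by matching the RefSeq transcript of each array probe to a gene symbol, which gave 83 members on 243 probes. Of these, 81 passed the filter on dim probes, which asks for a signal well above background on each of the 3 arrays of 1 or both groups, and were tested among 31582 genes or sequences in all. They comprised 74 textbook subunits of the ribosome, namely 44 of the large subunit, 29 of the small subunit and Rack1, and 7 copies or paralogs, which were kept apart. All 81 were in fact well above background on all 6 arrays. Rpl26, Rpl37 and Rps9 were among the textbook subunits matched to no probe, and the copies Rpl27l2 and Rpl39l1 were matched but not tested.

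The study compared male Sprague-Dawley (Crl:CD(SD)) rats, bought at 5 weeks of age, that received either corn oil (control, 3 animals) or BBMP at 1000 mg/kg/day (3 animals), both for 4 weeks. Total RNA of the renal cortex was labelled with Cy3 and read on one-colour Agilent arrays, 1 array per animal, and the design text calls the animals of a group biological replicates. Every value below is the log2 processed signal of a probe minus the 75th percentile of its array, so a level can be compared between arrays but not between genes. Differences are BBMP minus control on that log2 scale.

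A cytosolic ribosome is built from a large and a small subunit, each a core of ribosomal RNA covered by ribosomal proteins that are used mostly in equal numbers. Their mRNAs are among the most abundant of most cells, and most begin with a run of pyrimidines, the TOP motif, through which mTOR and the RNA-binding protein LARP1 control how much they are translated. Some ribosomal proteins also act outside the ribosome: RPL5 and RPL11 can bind MDM2 when ribosome assembly is disturbed, and RACK1 is a signalling scaffold.

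The pyrimidine run is a feature of the genes that no value of the comparison was used to find, so the start sites of the called subunits and of the reference gene Rplp0 are shown. Promoter windows of RefSeq (assembly GRCr8, 250 bases before to 50 bases after the annotated start) were found for 60 of the 74 subunits and 5 of the 7 copies. The stretches below run 5′ to 3′ from 30 bases before the start to the first 20 transcribed bases, with capitals for a C at the annotated start and the pyrimidines that follow it, where at least 4 follow. Rpl14 lies at chr8:129163590-129163639 on the plus strand. Rps7 lies at chr6:50999426-50999475, Rps15a at chr1:181860265-181860314, Rps26 at chr7:1643385-1643434, Rps4x at chrX:71342902-71342951 and Rplp0 at chr12:46718371-46718420, all on the minus strand.
Rpl14: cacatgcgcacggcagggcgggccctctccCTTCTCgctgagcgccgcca
Rps7: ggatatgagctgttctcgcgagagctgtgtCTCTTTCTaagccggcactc
Rps15a: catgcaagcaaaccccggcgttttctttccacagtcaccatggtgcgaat
Rps26: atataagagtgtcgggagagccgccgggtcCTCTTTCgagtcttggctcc
Rps4x: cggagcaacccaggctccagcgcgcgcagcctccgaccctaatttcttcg
Rplp0: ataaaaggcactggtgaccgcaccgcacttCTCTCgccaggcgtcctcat
Among the called subunits, Rpl14, Rps7 and Rps26 carry the run at the annotated start, and so does Rplp0. Rps15a and Rps4x do not, although in Rps4x such a run begins within 5 bases of the start. The starts are those of the annotation, and the starts used in the renal cortex were not measured. A missing run therefore does not show that an mRNA lacks the TOP motif.

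The run stood exactly at the annotated start in 23 of the 60 subunit promoters (38.3%), against 2.63% of the 33469 promoters of the table. Within 5 bases of the start, on the transcribed strand, it was present in 38 of 60 (63.3%) against 17.0% of all promoters. The ETS core CCGGAAG, searched on both strands of the 300 bases, was in 18 of 60 against 8.75% of all promoters, and the YY1 core AAGATGGC in 6 against 3.17%. The TATA box TATAAA, on both strands, was in 6 against 14.2%. Of the 5 copies with a promoter, none had the run at the start. The median difference between the groups of rats was -0.069 for the 23 subunits with the run at the start, of which 1 was called higher and 2 lower, and -0.050 for the 37 without, of which 1 was called each way. No test of the difference between subunits with and without the run was made.

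Ribosomal protein mRNAs stayed close to their control level. A gene was called where the adjusted p of the limma fit over all 31582 genes or sequences (Benjamini-Hochberg) was under 0.05. Of the 74 subunits, 2 were called higher (Rps26 and Rps4x) and 3 lower (Rpl14, Rps7 and Rps15a), and 69 were not called. That is 6.76% of the subunits, beside 17.9% of all genes tested, 10.2% of them called higher and 7.68% lower. The differences of the subunits ran from -0.37 (Rpl14) to 0.43 (Rps26), and 44 of the 74 were smaller than 0.1 in size.

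The low count was not accompanied by a wide standard error in limma, which draws each gene's spread toward a value shared by all genes. The count depended on that step: with trend and robust moderation, 4 of 74 subunits were called higher and 14 lower. Of all 31582 genes, that setting called 3640 higher and 3048 lower. The median standard error was 0.059 for the subunits, 0.10 over all genes and 0.069 over the 3159 genes with the brightest probes. Of the 74 subunits, 71 (95.9%) had a 95% interval that lay wholly within a 1.5-fold change either way. This held for 61.3% of all genes and 87.1% of those bright genes. At an unadjusted p under 0.05 there were 19 subunits (25.7%), 15 lower and 4 higher in BBMP, beside 36.6% of all genes. By these intervals most subunits changed little with this scaling, and most of the changes at that unadjusted level were decreases. The intervals rest on this drawn-in error and not on the spread between arrays of a group alone. That spread had a median SD of 0.039 in control and 0.038 in BBMP samples for the subunits. Over all genes it was 0.12 and 0.11. The intervals do not cover a shift between slides or scans, which went with the groups, or the choice of scaling. Median scaling moved the median difference of the subunits from -0.051 to -0.13.

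The subunits leaned slightly lower in the BBMP rats: 48 differences were negative and 26 positive, with a median of -0.051 against 0.049 over all genes and 0.0096 over the 3159 genes with the brightest probes. Their median signal over the array was 6.82, 6.82 and 6.87 in control replicates 1 to 3 and 6.70, 6.76 and 6.73 in BBMP replicates 1 to 3, so the groups did not overlap. As a share of the summed signal of each array, the chosen probes of the 74 subunits made up 3.22%, 3.13% and 3.16% in control and 3.05%, 3.02% and 2.99% in BBMP samples, again without overlap. The median below 0 held with every scaling tried, but the gap to the median of all genes, -0.10 here, was -0.066 with cyclic loess and turned to 0.0097 with normexp background correction, which moved the median of all genes from 0.049 to -0.062.

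For single subunits, the groups did not overlap in 41 of 74 (55.4%), 30 of them lower and 11 higher in BBMP, against 43.6% of all genes tested and 52.3% of those 3159 bright genes. In called genes, which were picked by a small p, a lack of overlap is no separate support. The count of subunits called lower rested on the settings. It was 12 of 74 with median scaling, where 3749 of all 31582 genes (11.9%) were called lower. With trend and robust moderation in limma it was 14 of 74, beside 3048 (9.65%) of all genes. It was 1 or 0 when any 1 array was left out, and with slide row as a block limma called none of all genes and 9 subunits had an unadjusted p under 0.05. All BBMP arrays and control replicate 3 lay in slide row 1, and control replicates 1 and 2 in row 2. With that block the group difference therefore rests on control replicate 3, so the fit cannot separate row from group well.

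The groups were hybridised and read apart, controls on slide 1 in scan 1 and BBMP samples on slide 2 in scan 2, so an effect of treatment cannot be told apart from one of slide or scan. Array brightness differed with them, since the 75th percentile of the signal was 943 to 950 in control and 1244 to 1259 in BBMP samples, and the part of this in the lean of the subunits was not tested. No spot of a tested member was saturated. In whole tissue, fewer cells of a type and less RNA per cell cannot be told apart. The 10 proximal tubule markers, which define the cortex, were all well above background in at least 1 group and none was called by limma (1 at an unadjusted p under 0.05), with a summed log2 level of 10.68 to 10.88 in control and 10.69 to 10.80 in BBMP samples. Of 5 podocyte markers, 2 were called higher, among them Synpo (0.40), and the other 3 were not called, between -0.28 and -0.033. Their summed level overlapped between the groups (4.98 to 5.22 in control, 4.91 to 5.13 in BBMP). Leukocyte markers overlapped too (1 of 13 called, Csf1r, higher), at a summed level of 6.47 to 6.65 in control and 6.01 to 6.65 in BBMP samples, while the summed levels of medulla and urothelium markers (-2.09 to -1.86 against -1.62 to -1.32) and of adrenal markers (1.18 to 1.29 against 1.51 to 1.63) were higher in BBMP without overlap. In those lists 1 of 3 tested markers each was called, Upk1b and Th, both higher, while the other adrenal markers differed by 0.069 (Cyp17a1) and -0.29 (Cyp11b2). The part of these markers in the subunit values was not tested.

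**Figure D1:**
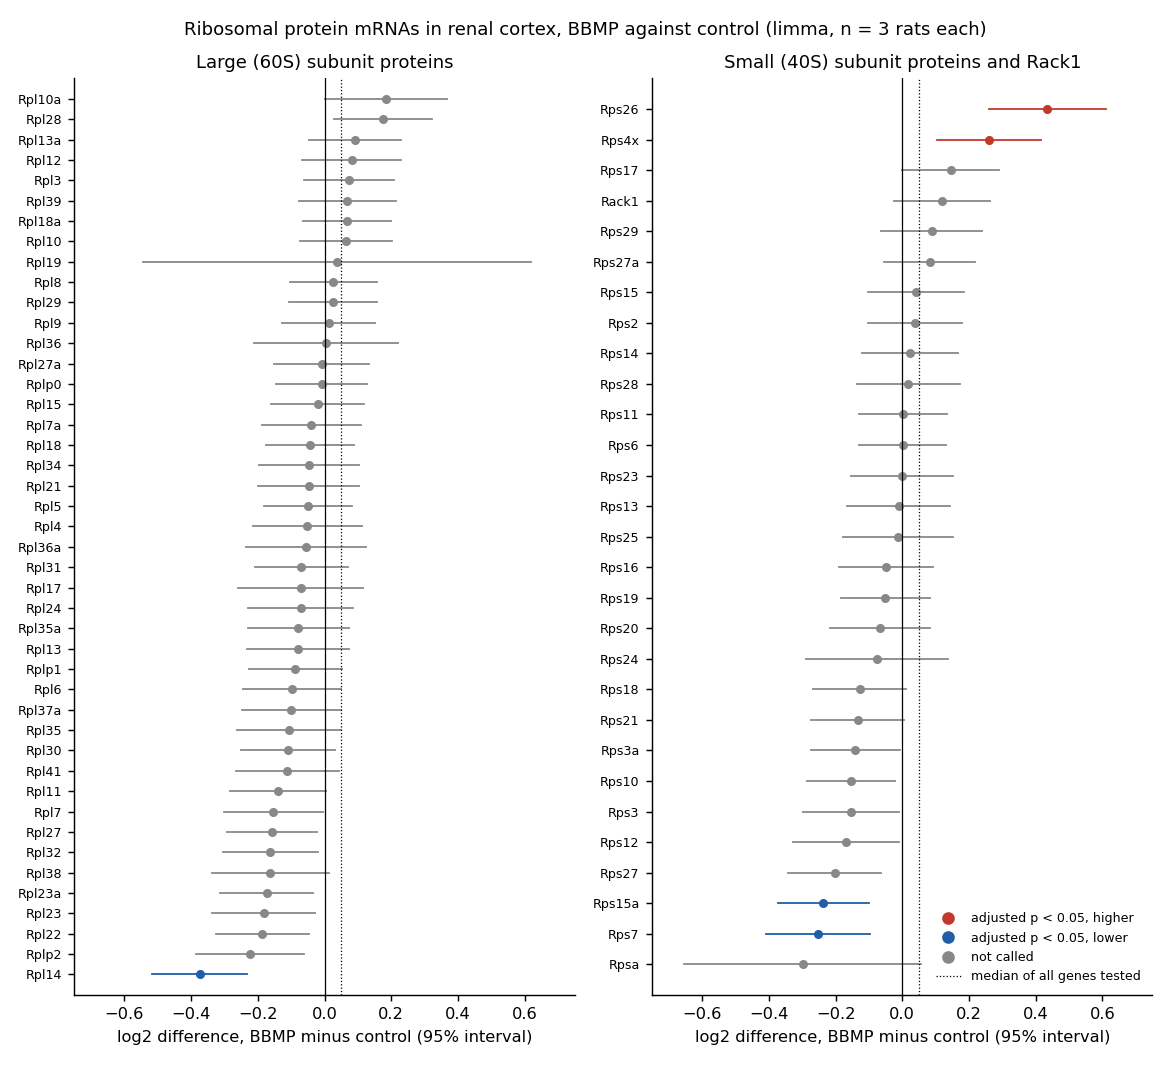
Difference in log2 signal (BBMP minus control) of the tested subunits, apart from any not reported here, each with its 95% interval from limma, large subunit on the left, small subunit and Rack1 on the right; the dotted line is the median of all genes tested. Most points lie within 0.1 of 0, Rpl14 is the lowest at -0.37 and Rps26 the highest at 0.43, and Rpl19 has the widest interval.

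In the large subunit, 1 of 44 proteins was called, Rpl14, and the median difference was -0.053. Rpl14 had log2 levels of 7.34, 7.26 and 7.28 in the 3 control rats and 6.95, 6.93 and 6.87 in the 3 BBMP rats. It fell by 0.37 ± 0.06 (SE from limma, as for all genes below), or 1.3-fold, with a limma adjusted p of 0.0165. Every BBMP rat lay below every control rat, and each group spread by less than 0.1. The other Rpl14 probe moved the same way, by -0.15 ± 0.06, and was not called (limma adjusted p over all probes 0.112).

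Next below Rpl14 in the large subunit stood Rplp2, an acidic protein of the stalk that recruits and activates the translational GTPases. Rplp2 measured 7.59, 7.59 and 7.72 in control and 7.39, 7.45 and 7.39 in BBMP samples. The groups did not overlap, but the difference of -0.22 ± 0.07 was not called (limma adjusted p = 0.0662). It was called under 5 of 13 alternative settings, and the second Rplp2 probe was called lower in the fit over probes (-0.28). The other stalk proteins differed less: Rplp1 by -0.088 ± 0.057, and Rplp0, the stalk base and a common reference gene, by -0.0089 ± 0.0554.

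Rplp0 lay at 8.26, 8.19 and 8.24 in control and 8.19, 8.24 and 8.22 in BBMP samples, so the groups overlapped fully, with a 95% interval from -0.15 to 0.13. Rpl5 and Rpl11, the partners of MDM2, differed by -0.050 ± 0.053 and -0.14 ± 0.06, and neither was called (limma adjusted p = 0.536 and 0.147). In Rpl11 the groups did not overlap, at 6.85 to 6.94 in control against 6.72 to 6.78 in BBMP samples. Among further reference genes, Rpl13a differed by 0.091 ± 0.056 and Rpl32 by -0.16 ± 0.06, again without a call. Rpl32 was called lower under 2 of 13 alternative settings.

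Rpl19, another reference gene, was the least precise subunit. Its chosen probe gave 7.42, 7.35 and 6.91 in control and 7.65, 6.86 and 7.28 in BBMP samples, a wider spread within each group than in any other textbook subunit. Its difference of 0.036 had a standard error of 0.236. The other 3 Rpl19 probes were tighter, with standard errors of 0.064 to 0.067, and differed by 0.0072, 0.18 and -0.016, none called.

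Rpl10a, a protein of the stalk beside which spent tRNA leaves the ribosome, had the largest increase there and was not called. It measured 6.15, 6.07 and 5.96 in control and 6.24, 6.18 and 6.31 in BBMP samples, a difference of 0.18 ± 0.07 (limma adjusted p = 0.135). The groups did not overlap, and its 2 other probes differed by 0.44, which was called higher in the fit over probes, and 0.23, which was not. Of the 3 probes of Rpl10a, all thus lay on the positive side.

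In the small subunit, 4 of 29 proteins were called, 2 each way, with a median difference of -0.049. Rps26, which lines the mRNA exit channel, had the largest difference of all subunits. It measured 3.68, 3.54 and 3.68 in control and 4.11, 4.11 and 4.0 in BBMP samples. It was higher by 0.43 ± 0.07, or 1.35-fold, with a limma adjusted p of 0.0184. The groups were well apart, but the other Rps26 probe differed the opposite way, by -0.18 ± 0.07 (limma adjusted p over all probes 0.114), and with the mean of both probes the gene was not called (0.13).

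Rps4x, encoded on the X chromosome, was represented by 1 probe. It measured 4.41, 4.38 and 4.39 in control and 4.60, 4.74 and 4.62 in BBMP samples, and was higher by 0.26 ± 0.06, or 1.2-fold (limma adjusted p = 0.0430). Every BBMP rat lay above every control rat. Its paralog Rps4y2 was read by 2 other probes, which disagreed. The brighter differed by 0.013 ± 0.054 and was not called, and the dimmer differed by -0.75.

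Rps15a measured 6.24, 6.17 and 6.19 in control and 5.99, 5.96 and 5.94 in BBMP samples. It fell by 0.24 ± 0.06, or 1.18-fold (limma adjusted p = 0.0388), with no overlap of the groups. The other 3 Rps15a probes differed by -0.21, -0.11 and -0.030 and were not called, so all 4 lay on the negative side. With normexp it was at -0.15 and was not called.

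Rps7, which like RPL5 and RPL11 can bind MDM2, measured 6.28, 6.26 and 6.19 in control and 6.05, 5.93 and 5.99 in BBMP samples. It fell by 0.25 ± 0.06, or 1.19-fold, with a limma adjusted p of 0.0461, just under the threshold. The groups did not overlap. Its other probe differed by 0.11 ± 0.07, the opposite way, and was not called, and with the mean of both probes the difference was -0.069 and not called.

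Rpsa, also known as the laminin receptor, had the second lowest difference of all subunits and was not called. It measured 5.59, 5.42 and 5.72 in control and 5.30, 5.50 and 5.03 in BBMP samples, a difference of -0.30 ± 0.14 (limma adjusted p = 0.193). The groups overlapped, since BBMP replicate 2 lay above control replicate 2. The other 3 Rpsa probes differed by 0.069, -0.032 and 0.19, none called, so the probes of Rpsa did not share a direction.

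The remaining small subunit proteins fixed for description differed little. Rps6, the substrate of the S6 kinases, lay at 7.55, 7.5 and 7.55 in control and 7.55, 7.53 and 7.52 in BBMP samples and differed by 0.0011 ± 0.0531, with a 95% interval from -0.13 to 0.13. Rps19, mutated in Diamond-Blackfan anaemia, differed by -0.051 ± 0.054. Rps18, a reference gene, differed by -0.13 ± 0.06 with groups that did not overlap (7.24 to 7.32 in control, 7.11 to 7.17 in BBMP), and was not called (limma adjusted p = 0.161).

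Rps27 differed by -0.20 ± 0.06 (limma adjusted p = 0.0594) and Rps27a, which is made as a fusion with ubiquitin, by 0.082 ± 0.055. Rack1, the scaffold on the head of the small subunit, was at 4.39, 4.28 and 4.31 in control and 4.47, 4.42 and 4.44 in BBMP samples. Its difference of 0.12 ± 0.06 was not called (limma adjusted p = 0.200), though the groups did not overlap.

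The calls lay close to the threshold, and each was lost when some array was left out, which also leaves fewer animals in the fit. Rpl14 was called only without control replicate 3 (limma adjusted p = 0.038). It was 0.053 without control replicate 1, 0.051 without control replicate 2, and 0.055, 0.061 and 0.053 without BBMP replicates 1, 2 and 3. Rps26 was called without control replicate 3 or BBMP replicate 3, and not without control replicate 1 (limma adjusted p = 0.050), control replicate 2 (0.054), BBMP replicate 1 (0.064) or BBMP replicate 2 (0.066). For Rps7, Rps15a and Rps4x, the call was lost whichever of the 6 arrays was left out, with limma adjusted p from 0.064 to 0.13, 0.073 to 0.11 and 0.086 to 0.11. The differences themselves kept their sign in all of these fits and in the 13 other settings for all 5 genes. Over these settings the difference of Rpl14 ran from -0.45 to -0.26 and that of Rps26 from 0.13 to 0.56. In some of the 13 settings the kept sign was fixed beforehand. Trend and robust moderation and the replicate block leave a difference as it is, and the deposited table holds the same processed signal. The settings for filters left the median of the subunits at -0.051.

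**Figure D2:**
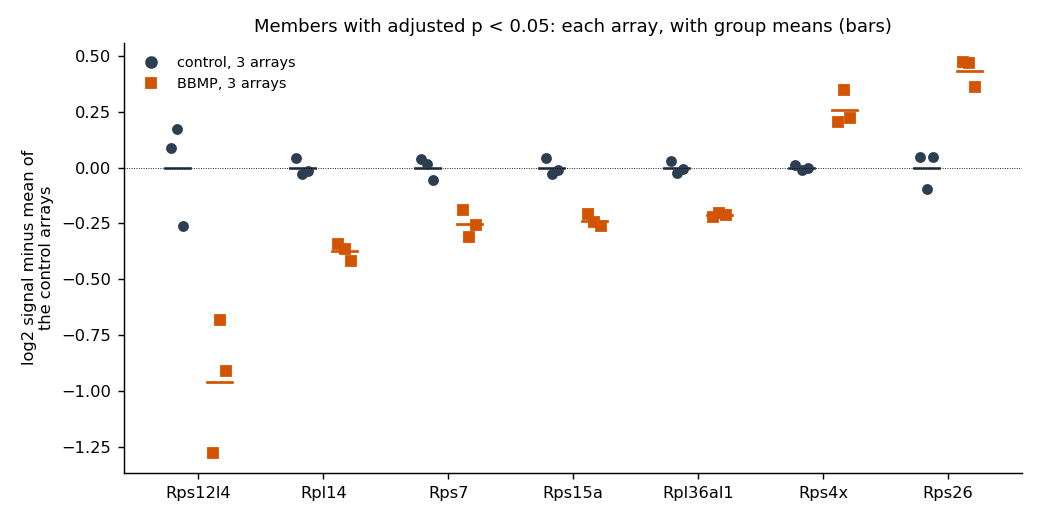
Log2 signal minus the mean of the control arrays for the 5 subunits and 2 copies with a limma adjusted p under 0.05, with control samples as circles, BBMP samples as squares and group means as bars (n = 3 each). In all 7 genes, which were picked by that adjusted p, the groups do not overlap (43.6% of all genes tested), and Rps12l4 shows both the largest shift and the widest spread.

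The 7 copies and paralogs were kept apart because they can share probe sequence with their parent gene. Probe sequences were not available, so this was not checked. None was called higher and 2 were called lower by limma, Rps12l4 and Rpl36al1, with a median of -0.21 over the 7, and at an unadjusted p under 0.05 there were 0 higher and 5 lower. With 7 genes these counts, 2 called and 5 at that unadjusted level, stand beside 17.9% and 36.6% of all genes. Rps12l4 was dim, at -4.14, -4.05 and -4.49 in control and -5.51, -4.91 and -5.14 in BBMP samples. It fell by 0.96 ± 0.19, or 1.94-fold (limma adjusted p = 0.0263), without overlap, from 1 probe. Its parent Rps12 differed by -0.17 ± 0.06 and was not called.

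Rpl36al1 measured 5.93, 5.87 and 5.89 in control and 5.67, 5.69 and 5.68 in BBMP samples. It fell by 0.21 ± 0.05, or 1.16-fold (limma adjusted p = 0.0454), and its other probes differed by -0.21 and -0.17, not called. Rpl36a, the textbook member of that pair, differed by -0.055 ± 0.073, with groups that overlapped. The dimmest of its 5 probes differed by -0.85. The call of Rpl36al1 was lost with any 1 array left out (limma adjusted p from 0.086 to 0.12). That of Rps12l4 remained only without control replicate 3, and the adjusted p was 0.056 to 0.076 without any other array.

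Further pairs of a subunit and its paralog were assigned separate probes, and whether a probe also read the other transcript was not checked. Rpl22, a protein that also binds viral RNA, differed by -0.19 ± 0.06 (limma adjusted p = 0.0708) and its paralog Rpl22l1 by 0.068 ± 0.083. Rpl22 had groups that did not overlap (6.10 to 6.15 in control, 5.89 to 5.98 in BBMP), while Rpl22l1 overlapped. Rpl3 differed by 0.073 ± 0.054 and Rpl3l, the muscle paralog, by -0.21 ± 0.08 at a dim level, neither called. Rpl7, Rpl10 and Rpl39, whose paralogs were not analysed here, differed by -0.15, 0.064 and 0.069.

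Just outside the threshold lay Rpl37al2 (-0.26, limma adjusted p = 0.0515), Rpl37l1 (-0.20, 0.0583), Rps27 (-0.20, 0.0594) and Rplp2 (-0.22, 0.0662). Just inside lay Rps7 (0.0461), Rpl36al1 (0.0454) and Rps4x (0.0430). All 4 of the former were lower in BBMP without overlap of the groups. Over all genes tested, the groups did not overlap in 43.6%, in either direction. The 4 genes were picked by their adjusted p, so their lack of overlap is no separate support.

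Most members were read by several probes, which made it possible to see how far a difference depends on the probe. Of 239 tested member probes, 6 were called higher and 7 lower, beside 17.8% of the 42657 probes tested on the array called in either direction. Of the 158 probes not chosen to represent their gene, 4 were called higher, among them probes of Rpl10a, Rplp0 and Rpl39, and 2 lower, for Rplp2 and Rpl23a. The dimmest Rplp0 probe was higher by 0.40 ± 0.07, while the 2 bright ones differed by -0.019 and -0.0089. Probes of the same gene thus disagreed in size, and in some genes in sign.

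In 53 of the 72 members with several probes (73.6%) the brightest probe gave the lower difference, and the same held in 64.6% of 6216 named genes with several probes. The median over the members was 0.025 for the dimmest probe and -0.051 for the brightest. With quantile normalization and with cyclic loess the count was 56 members each (77.8%), against 60.1% and 58.5% of named genes. With normexp it was 49 members (68.1%), against 49.8% of named genes. Over all named genes, the brightest probe thus gave the lower difference in more than 50% of genes with the 75th percentile, quantile normalization and cyclic loess, but not with normexp. In the members, the brightest probe gave the lower difference in more than 50% with normexp as well. With the mean of all probes in place of the brightest, the median of the 74 subunits was -0.013, and that of the small subunit was 0.0013.

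**Figure D3:**
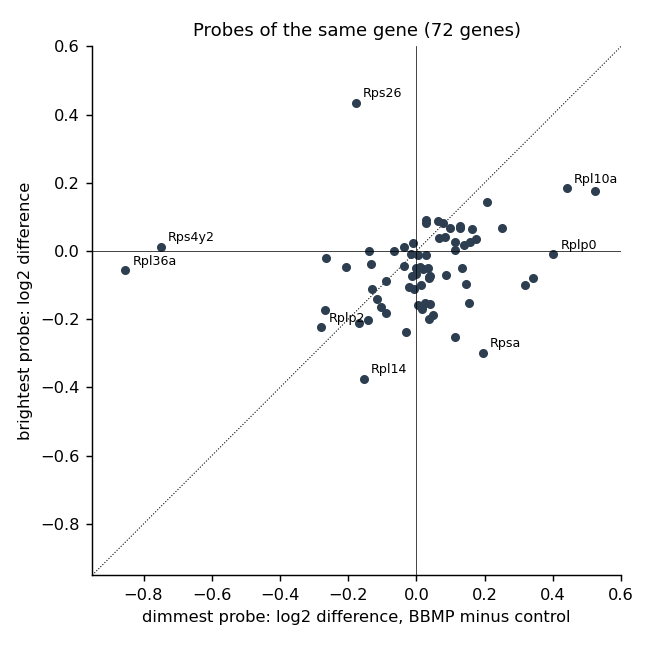
Log2 difference (BBMP minus control) of the dimmest tested probe of a gene on the horizontal axis and of its brightest probe on the vertical axis, for the 72 members with several probes; the dotted line marks equal values. More points lie below the line than above it (53 of 72), and Rps26, Rps4y2 and Rpl36a lie farthest above it.

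Genes that act with the ribosome were described in 4 lists of gene symbols, with no test of a list. Among translation factors and other TOP mRNAs, 2 of 40 tested genes were called higher and 7 lower (22.5% called, beside 17.9% of all genes), with a median of -0.16. Eif1ax, a start codon scanning factor, was lower by -0.53 ± 0.10, Btf3, a part of the nascent polypeptide-associated complex, by -0.48 ± 0.06 and Npm1, a nucleolar histone and ribosome chaperone, by -0.46 ± 0.06. Npm1 lay at 5.12, 5.03 and 5.08 in control and 4.57, 4.64 and 4.64 in BBMP samples. Eif4e, the cap-binding protein, differed by -0.36 ± 0.06 (limma adjusted p from 0.0129 to 0.0264 for these 4 genes). In all 4 the groups did not overlap.

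Ribosome biogenesis factors were called lower in 16 and higher in 5 of 80 tested genes (26.3% called, beside 17.9% of all genes), with a median of -0.079. Utp18, a component of the small subunit processome, lay at 0.71, 0.64 and 0.73 in control and -0.015, 0.019 and 0.056 in BBMP samples, a difference of -0.67 ± 0.06. Taf1b, an initiation factor of RNA polymerase I, differed by -0.69 ± 0.11, Nmd3, the export adaptor of the large subunit, by -0.61 ± 0.11 and Emg1, a methyltransferase of ribosomal RNA, by -0.52 ± 0.10 (limma adjusted p from 0.0108 to 0.0242 for these 4 genes). The groups did not overlap in any of them. A difference between this list and the subunits was not tested.

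Of the genes that control ribosomal protein synthesis, 3 of 27 were called higher and 2 lower (18.5% called, close to the 17.9% of all genes), with a median of -0.051. Eif4ebp2, a repressor of cap-dependent translation, was lower by -0.45 ± 0.05. Tsc2, an inhibitor of mTOR signalling, was higher by 0.41 ± 0.07 and Rps6ka2, a kinase of the RSK family, by 0.36 ± 0.08. Tsc2 lay at 2.15, 2.18 and 2.31 in control and 2.61, 2.63 and 2.63 in BBMP samples (limma adjusted p = 0.0180). The groups did not overlap in any of these 3.

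The proteins of the mitochondrial ribosome, which are encoded by separate nuclear genes, gave few calls: limma called 4 of 66 lower and none higher (6.06% called, beside 6.76% of the cytosolic subunits and 17.9% of all genes), with a median of -0.032, and 5 were higher and 8 lower at an unadjusted p under 0.05 (19.7%, beside 36.6% of all genes). Mrpl50 differed by -0.34 ± 0.06, Mrps31 by -0.33 ± 0.05, Mrpl13 by -0.24 ± 0.05 and Mrps21 by -0.22 ± 0.06 (limma adjusted p from 0.0186 to 0.0469). The groups did not overlap in any of the 4, but Mrpl50 turned to 0.028 with the mean of all its probes.

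**Figure D4:**
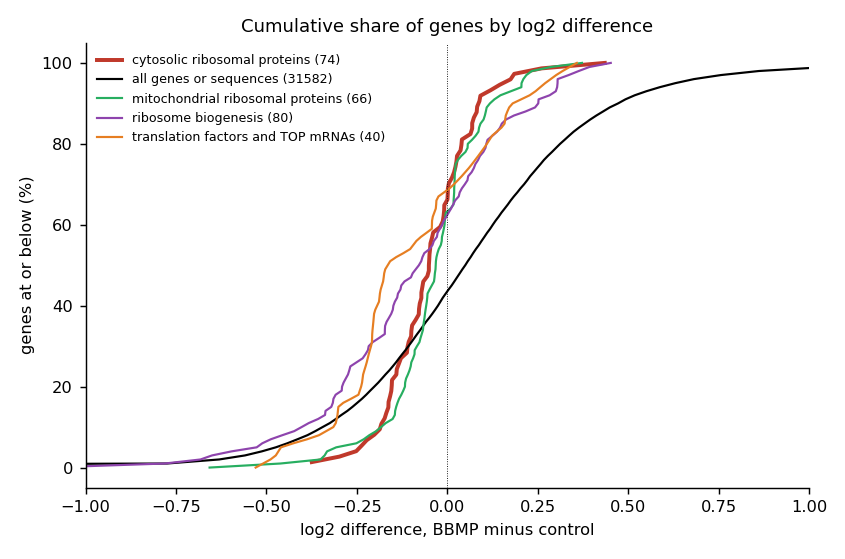
Cumulative share of genes (vertical axis, percent) at or below each log2 difference (BBMP minus control, horizontal axis) for the 74 cytosolic subunits, the mitochondrial ribosomal proteins, the ribosome biogenesis factors, the translation factors with other TOP mRNAs and all genes tested. The curves of both kinds of ribosomal protein are the steepest near 0, while the curve of the translation factors lies farthest to the left at its middle (median -0.16).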

How the data were processed

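RNA of 6 renal cortex samples was measured on one-colour Agilent arrays designed on rn4, and no coordinates of that build were used. Per the file headers, scanner files were made with Feature Extraction 10.7.1.1 (10.7 per the submitters' processing notes) and hold the authors' deposited intensity: a background-subtracted processed signal, and the median signal with its background. Per the file headers, flags scored 0 or 1 mark spots well above background, saturated or outlying. The authors' deposited table gives a ratio per probe and array; its scale was found by comparison, and each column equals the processed signal over the 75th percentile of another array of the same group, with no centring (column medians 0.107 to 0.114). It served as an alternative, so replicate numbers are uncertain and groups are not.

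Of 61657 non-control probes, 84 ERCC spike-in and 10 outlier-flagged probes were left out. Of the 61563 others, 27452 were named by accession through a RefSeq table (GRCr8). A probe was kept if each of the 3 arrays of 1 or both groups had it well above background, and the brightest stood for each gene. The comparison of the groups used the two-sided test of limma 3.58.1 (lmFit, then eBayes) with R 4.3.3 and no covariates, after it was tested on simulated data. Plots were made in Python 3.11.15 with matplotlib 3.10.9. With 3 arrays per group, their number limits the precision.

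Members and lists were chosen with earlier results of these data known. The rule named called members, the 3 largest differences each way, paralog pairs, reference genes and genes with extra roles, and up to 4 called genes of each related list. Rpl37al2, Rpl37l1, Rpl23a, Rps12 and Rps4y2 were chosen after their values were seen. A few genes are not reported here. The alternatives covered normalization, background correction, the deposited table, filters, choice of probe, moderation, array weights, blocks for replicate number and slide row, and each array left out. Normexp used the median signal and an offset of 50.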

Additional observations from a re-analysis of the deposited data

How the results depend on the processing

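Counts of called genes depended on the settings, and the cause was not tested. Fewer animals entered the fits with 1 array left out, and more genes were tested in the fit with no filter. Subunits called higher (2) were 1 with median scaling or no filter on dim probes and 4 with trend and robust moderation. Subunits called lower (3) were 5 with quantile normalization, 12 with median scaling, 8 with normexp, 1 with no filter and 14 with trend and robust moderation. With 1 array left out, both counts lay between 0 and 1. Called copies (2) were 4 with median scaling, normexp, or trend and robust moderation, 1 with the mean of all probes and 0 to 1 with 1 array left out. Over all genes, median scaling gave 2102 higher and 3749 lower, no filter 2102 higher and normexp 5109 lower, against 3232 and 2427. With 1 array left out they lay between 3 and 2431 higher and 0 and 1571 lower, the lowest without BBMP replicate 2.

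Called translation factors and TOP mRNAs (9) were 15 with normexp, 5 with no filter and 19 with trend and robust moderation, and 0 to 5 with 1 array left out. Biogenesis factors (21) were 13 with no filter and 0 to 13 with 1 array left out. Control genes (5) were 9 with normexp, 3 with no filter, 1 with the mean of all probes and 0 to 2 with 1 array left out. Mitochondrial ribosomal proteins (4) were 10 with normexp, 2 with no filter, 2 with the mean of all probes, 7 with trend and robust moderation and 0 to 3 with 1 array left out.

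The median of the subunits was -0.13 with median scaling and -0.013 with the mean of all probes, and -0.067 to -0.041 with 1 array left out. That of the large subunit was -0.13, -0.019 and, with slide row as a block, -0.094, and -0.080 to -0.045 with 1 array left out. That of the small subunit was -0.12 with median scaling, -0.085 with normexp and 0.0013 with the mean of all probes, and -0.044 to -0.026 with 1 array left out. Mrpl50 reversed to 0.028 with the mean of all probes.

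With the replicate number as a block, limma called 0 of all genes, subunits, copies and related lists, with 9943 genes and 7 subunits at an unadjusted p under 0.05. Same-numbered samples did not deviate together (correlations of -0.12, -0.082 and -0.068, beside -0.050 to 0.12 for samples with unlike numbers). With 3 arrays per group, such correlations cannot show whether the samples were paired. With slide row as a block, limma also called 0 in each, with 7288 genes and 9 subunits at an unadjusted p under 0.05. In that fit the group difference rests on control replicate 3, the only control in the slide row of the BBMP arrays.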
